A study of Mus musculus with 4 samples.

Results

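Genes of mitosis were examined in double-positive (DP) thymocytes, T cell precursors that display CD4 together with CD8, from mice with and without deletion of the deubiquitinase gene Usp8. The list held 52 genes of the mitotic kinases, spindle, kinetochore, condensin, checkpoint and cytokinesis machinery, entered under 53 names because Cdc2a is an older name of Cdk1. They were selected by name: 97 of the 41174 non-control probes carried one of these names, and all 52 genes were among the 13062 genes tested. The USP8ff_CD4Cre mice had loxP-flanked Usp8 alleles and Cre under Cd4 regulatory sequences, which act from the DP stage on. The USP8ff mice had the flanked alleles without Cre, so both genotypes carried the modified alleles, and no group carried Cre alone. All were untreated, sex-matched littermates of 6 to 12 weeks. Each of the 4 samples was a pool of sorted cells from 2 mice, with 2 pools per genotype, each on 1 single-colour Agilent array. Errors and p-values here thus rest on how far pools of one genotype differed, and 2 arrays per genotype limit their precision. The limma fit also draws the error of each gene toward the spread over all genes tested.

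A cell enters mitosis when cyclin-dependent kinase 1 is switched on by its cyclins, condenses its chromosomes, attaches them to the spindle through kinetochores, and separates them once the spindle checkpoint is satisfied. Transcripts of most proteins that carry this out accumulate in G2 and M phase and are low in resting cells. Thymocytes divide quickly as they pass into the DP stage and then rest as small cells, so that a sorted DP population mixes a cycling minority with many resting cells. In RNA from such a bulk population, fewer or more cycling cells and less or more mitotic RNA per cell cannot be told apart.

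The arrays carried the signal of DP cells: all 12 markers of the stage were measured. Signals are log2 values from which the 75th percentile of the array was subtracted, and levels of different probes are not comparable with each other. Cd8b1, which encodes a co-receptor chain, had 9.29 and 9.29 in USP8ff_CD4Cre, against 9.15 and 9.26 in USP8ff. Rag1, which encodes a subunit of the recombinase, had 7.38 and 7.26 in USP8ff_CD4Cre, against 7.47 and 7.56 in USP8ff. Usp8 had -1.03 and -1.23 in USP8ff_CD4Cre, against -0.23 and -0.40 in USP8ff, so that its groups did not overlap. Its log2 difference was -0.81 ± 0.13 (SE; limma adjusted p = 0.597). The place of its probe relative to the deleted part of the gene was not determined, so this is a limited check of the labels. Between 18522 and 20137 probes per array were well above background.

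Nearly every mitotic gene had more signal in USP8ff_CD4Cre DP thymocytes, by a modest amount. Of the 52 genes, 51 had a positive log2 difference (USP8ff_CD4Cre minus USP8ff), where 54.8% of all genes tested did. The median difference was 0.49, or 1.40-fold, against 0.02 over all genes tested, and the quartiles were 0.40 and 0.54. Only 1.91% of all genes tested reached the median of the mitotic genes. The exception was Pttg1, which encodes securin.

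None of these differences passed the test over all genes. With limma and Benjamini-Hochberg adjustment 0 of the 52 passed 0.05, as did 0% of all genes tested, and the adjusted p-values of the 52 ran from 0.661 to 0.875. At an unadjusted p under 0.05, 27 of the 52 were higher in USP8ff_CD4Cre (51.9%), against 3.97% of all genes tested, and 0 were lower, against 3.46%. Both USP8ff_CD4Cre arrays lay above both USP8ff arrays for 46 of the 52, where 24.3% of all genes tested had that order. The opposite order, both below both, held for 0 of the 52 and for 16.3% of all genes tested. The 6 whose groups overlapped were Pttg1, Mad2l1, Anln, Cdc25b, Cdc25c and Spc25. The difference was positive and larger than the gap between the 2 arrays of either genotype for 29 of the 52, against 16.8% of all genes tested.

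**Figure D1:**
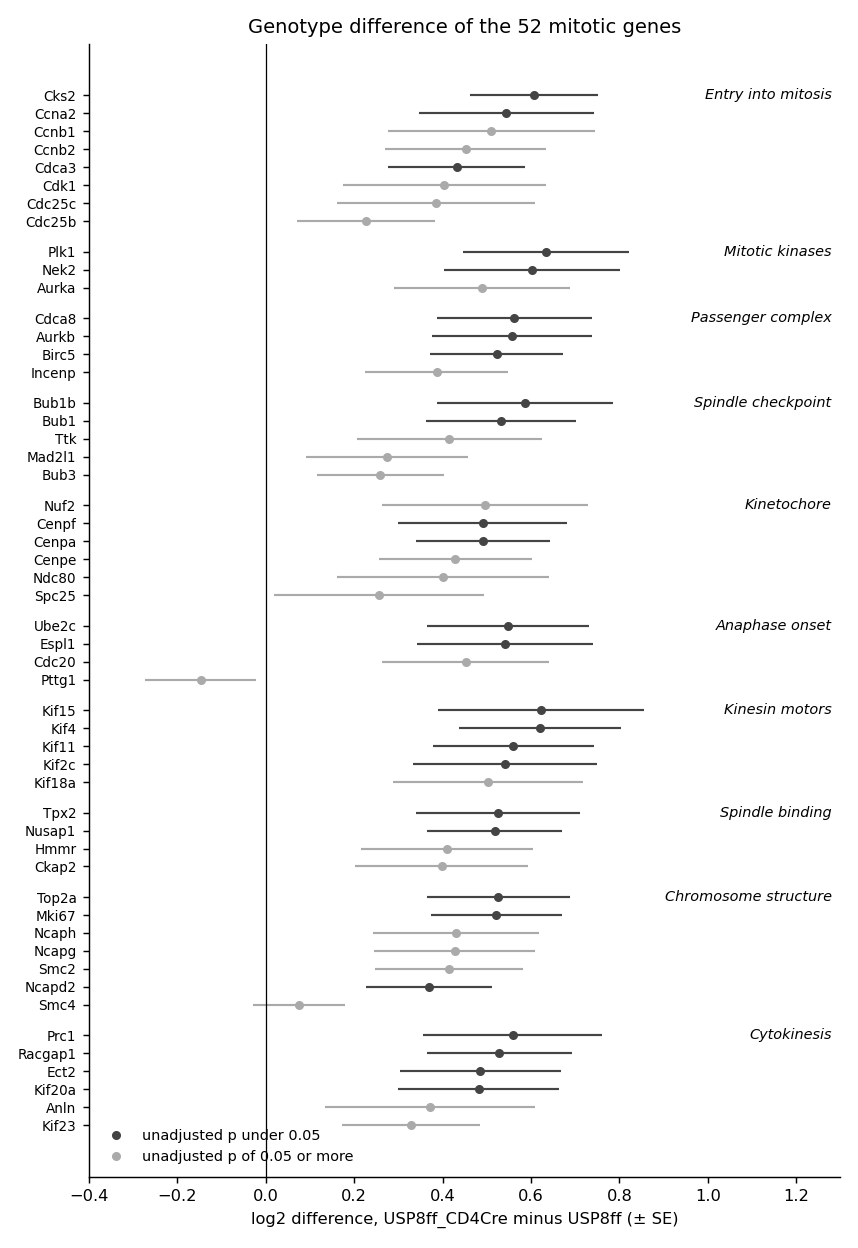
Log2 difference, USP8ff_CD4Cre minus USP8ff, of each of the 52 mitotic genes (points, with bars of 1 SE from limma; 2 arrays per genotype), grouped by function. Dark points passed an unadjusted p under 0.05 and grey points did not; 51 of the 52 lie right of 0, Pttg1 lies left of it and Smc4 lies near it.

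The size of the difference depended on which arrays were set against each other. Replicate 1 of USP8ff_CD4Cre had a median difference over the 52 genes of 0.18 from replicate 1 of USP8ff and of 0.33 from its replicate 2. Replicate 2 of USP8ff_CD4Cre had a median difference of 0.61 from replicate 1 of USP8ff and of 0.78 from its replicate 2. All 4 medians were positive, and the lowest was a small part of the highest.

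The 2 USP8ff_CD4Cre pools were themselves far apart. Replicate 2 exceeded replicate 1 for 49 of the 52 genes, with a median gap of 0.42, which is close to the genotype difference. In USP8ff, replicate 2 exceeded replicate 1 for 7 of the 52, with a median gap of -0.16. The order USP8ff_CD4Cre replicate 2, USP8ff_CD4Cre replicate 1, USP8ff replicate 1, USP8ff replicate 2 from high to low, singled out after the values were seen, held for 39 of the 52 genes and for 10.1% of all genes tested. Without USP8ff_CD4Cre replicate 2 the median difference was 0.25, 50 of the 52 differences were positive and only Cks2 was past an unadjusted p of 0.05. Without USP8ff replicate 2 the median was 0.40, and again only Cks2 was past it. Without USP8ff_CD4Cre replicate 1 the median was 0.70 and 43 were past it.

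**Figure D2:**
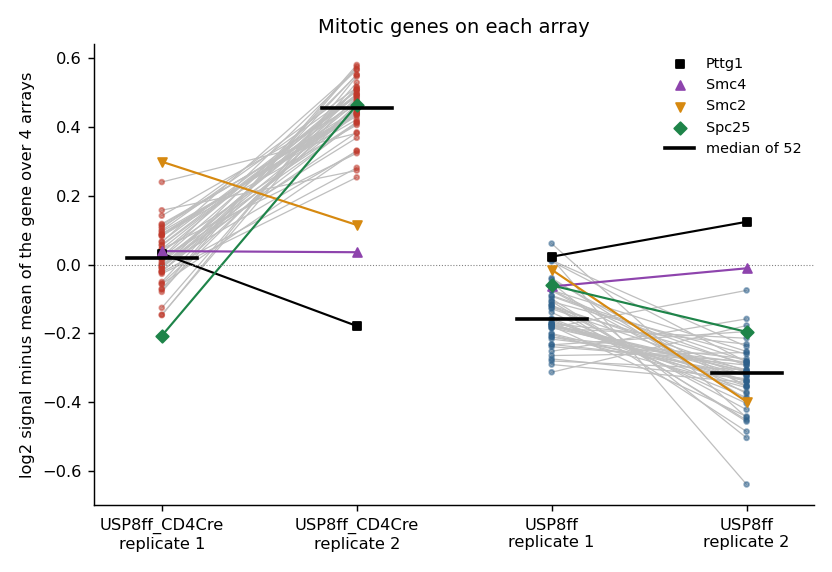
Log2 signal of each mitotic gene on each array, minus the mean of that gene over the 4 arrays (points joined within a genotype; black bars, median of the 52). Of the 52 genes, 49 are highest in USP8ff_CD4Cre replicate 2 and 44 are lowest in USP8ff replicate 2; Pttg1, Smc4, Smc2 and Spc25 are among the 13 that do not follow the common order.

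Most of the mitotic genes with a promoter window at hand hold promoter elements known from G2/M genes. As the list was made of G2/M genes, high shares of these elements are no result of the arrays. In G2/M genes the cell cycle genes homology region (CHR) is bound by the MuvB complexes that repress these genes in resting cells and, with MYB proteins, activate them in G2, and the CCAAT box is bound by the activator NF-Y. RefSeq promoter windows (GRCm38.p6, 250 bases before to 50 after the gene start) were at hand for 45 of the 52 genes, 48 windows in all. Ect2, Prc1 and Bub3 had overlapping windows, which were counted apart. A CHR was searched as TTTGAA or TTCGAA and a CCAAT box as CCAAT, on both strands, and the searched motifs do not contain each other. A CHR was found in 37 of the 48 windows (77.1%), against 13.8% of the windows of genes tested and 19.2% of all windows. A CCAAT box was found in 37 (77.1%), against 38.1% of the windows of genes tested and 37.4% of all windows. Both were found in 33 (68.8%), against 5.83% of the windows of genes tested and 7.52% of all windows. Such a match is a run of letters and not a site shown to be bound.

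These 4 windows are shown because their genes had the smallest p-values among those with both elements. Each is written 5′ to 3′ on the strand of its gene, with CHR and CCAAT matches in capitals. They belong to the proliferation marker gene Mki67 (chr7:135716330-135716629, minus strand), the chromokinesin gene Kif4 (chrX:100625815-100626114, plus strand), the mitotic kinase gene Plk1 (chr7:122159185-122159484, plus strand) and the centromeric histone gene Cenpa (chr5:30666636-30666935, plus strand).
Mki67: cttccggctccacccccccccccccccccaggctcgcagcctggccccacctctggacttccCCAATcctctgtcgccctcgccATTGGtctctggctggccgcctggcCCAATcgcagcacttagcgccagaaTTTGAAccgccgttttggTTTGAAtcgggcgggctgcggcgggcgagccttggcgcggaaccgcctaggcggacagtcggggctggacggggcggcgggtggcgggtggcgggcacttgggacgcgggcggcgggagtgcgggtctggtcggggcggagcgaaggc
Kif4: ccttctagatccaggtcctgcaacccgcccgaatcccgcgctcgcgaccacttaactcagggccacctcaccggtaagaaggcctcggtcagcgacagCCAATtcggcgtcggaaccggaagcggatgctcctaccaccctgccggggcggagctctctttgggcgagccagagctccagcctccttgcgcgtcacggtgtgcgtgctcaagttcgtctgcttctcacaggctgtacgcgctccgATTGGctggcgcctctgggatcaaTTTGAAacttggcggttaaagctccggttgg
Plk1: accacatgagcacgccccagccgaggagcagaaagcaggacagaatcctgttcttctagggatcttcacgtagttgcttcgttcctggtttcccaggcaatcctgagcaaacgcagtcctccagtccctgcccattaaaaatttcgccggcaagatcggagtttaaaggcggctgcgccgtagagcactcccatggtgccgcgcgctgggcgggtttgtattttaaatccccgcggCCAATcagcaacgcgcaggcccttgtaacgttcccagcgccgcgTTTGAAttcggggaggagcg
Cenpa: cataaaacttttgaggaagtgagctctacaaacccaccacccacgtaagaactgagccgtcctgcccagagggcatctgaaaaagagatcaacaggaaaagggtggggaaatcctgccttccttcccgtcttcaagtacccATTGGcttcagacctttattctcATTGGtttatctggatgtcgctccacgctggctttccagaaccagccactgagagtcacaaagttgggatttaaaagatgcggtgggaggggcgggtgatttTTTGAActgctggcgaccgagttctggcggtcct
The windows differ in layout. In Kif4, Plk1 and Cenpa a single CHR begins after the annotated start, at bases 20, 31 and 17, with 2, 1 and 2 CCAAT boxes before the start. In Mki67 both CHR matches lie before it, beginning at bases -116 and -98, and 3 CCAAT boxes lie further up.

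A CHR began within the last 100 bases of the window, from 50 before to 50 after the gene start, in 32 of the 48 windows (66.7%), against 3.73% of the windows of genes tested. The presence of the letters did not sort the genes by their difference. The 34 genes with a CHR had a median log2 difference of 0.49 and the 11 without one had 0.50. The 7 genes with neither element, Pttg1 among them, had a median of 0.50.

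**Figure D3:**
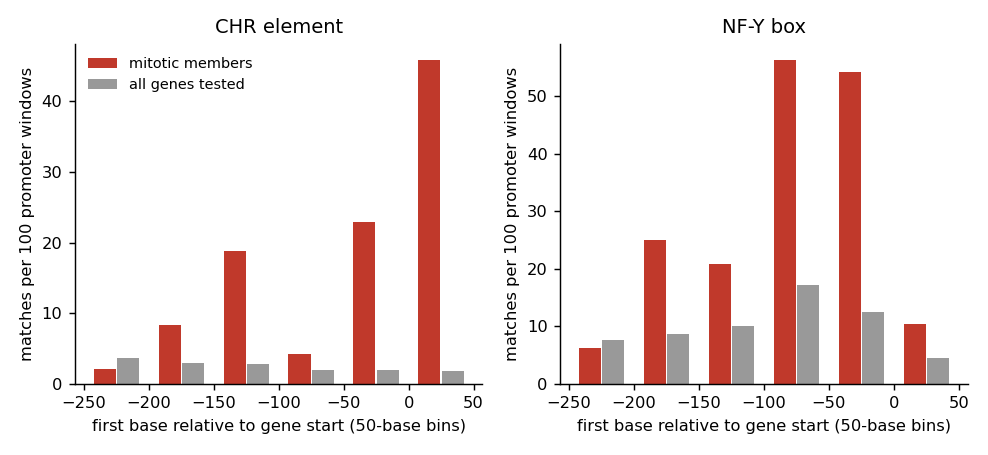
Matches to the CHR element (left) and the NF-Y (CCAAT) box (right) per 100 promoter windows, by distance of their first base from the annotated gene start in bins of 50 bases; red, 48 windows of mitotic genes; grey, 11089 windows of genes tested. CHR matches of the mitotic genes are densest just after the start, at 45.8 per 100 windows, against 1.84 per 100 in the windows of genes tested.

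Genes of entry into mitosis include the cyclins and the subunits and activators of CDK1. All 8 had positive differences, with a median of 0.44, and 3 were past an unadjusted p of 0.05. Counts by class, here and below, are to be read beside the shares of all genes tested. A positive difference held for 54.8%, and both USP8ff_CD4Cre arrays lay above both USP8ff arrays for 24.3%. A positive difference larger than both gaps held for 16.8%, the common array order for 10.1%, and 3.97% were higher at an unadjusted p under 0.05. Cks2, which encodes a small CDK-binding subunit, had the smallest p of all 52 genes and the largest difference of the class. Its signals were 5.39 and 5.71 in USP8ff_CD4Cre, against 4.97 and 4.92 in USP8ff, so that the gap between pools of either genotype was smaller than the difference and the groups did not overlap (log2 difference 0.61 ± 0.14, 1.52-fold). Its probe lies on mm9 chromosome 13, 51745898 to 51745957. The cyclin A2 gene Ccna2 (0.54 ± 0.20), the cyclin B genes Ccnb1 (0.51 ± 0.23) and Ccnb2 (0.45 ± 0.18), and Cdk1 itself (0.40 ± 0.23) had differences of much the same size. Cdca3, which promotes destruction of the CDK1 inhibitor WEE1, had 0.43 ± 0.15.

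The activating phosphatases of CDK1 were the 2 genes of this class whose groups overlapped. Cdc25b had 3.20 and 3.48 in USP8ff_CD4Cre, against 3.24 and 2.99 in USP8ff, the smallest difference here (0.23 ± 0.16), and overlapped because USP8ff replicate 1 lay above USP8ff_CD4Cre replicate 1. Cdc25c had 0.38 ± 0.22.

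The 3 mitotic kinase genes outside the complexes described further on all had groups that did not overlap. Plk1, the kinase of centrosome maturation and of many later steps, had the largest difference of all 52 genes. Its signals were 4.51 and 5.01 in USP8ff_CD4Cre, against 4.15 and 4.10 in USP8ff, and the difference was 0.63 ± 0.19, or 1.55-fold (mm9 chromosome 7, 129313220 to 129313279). Nek2, a kinase of centrosome separation, had 1.69 and 2.10 in USP8ff_CD4Cre, against 1.48 and 1.11 in USP8ff (difference 0.60 ± 0.20). Aurka, the kinase of spindle poles, had 4.82 and 5.35 in USP8ff_CD4Cre, against 4.66 and 4.53 in USP8ff (difference 0.49 ± 0.20). In each, USP8ff_CD4Cre replicate 2 was the highest array and USP8ff replicate 2 the lowest.

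The chromosomal passenger complex corrects faulty attachments and then guides cleavage. All 4 of its genes had positive differences and groups that did not overlap, and for all 4 the difference exceeded both gaps between replicates. The kinase gene Aurkb had 1.83 and 2.15 in USP8ff_CD4Cre, against 1.61 and 1.26 in USP8ff (difference 0.56 ± 0.18). Birc5, the survivin gene, had 6.35 and 6.70 in USP8ff_CD4Cre, against 6.03 and 5.98 in USP8ff (difference 0.52 ± 0.15). All 4 genes of the complex followed the common order of the arrays. Cdca8, the borealin gene, had 5.60 and 6.03 in USP8ff_CD4Cre, against 5.33 and 5.17 in USP8ff (difference 0.56 ± 0.18). The scaffold gene Incenp had 6.27 and 6.62 in USP8ff_CD4Cre, against 6.16 and 5.96 in USP8ff (difference 0.39 ± 0.16), the smallest of the complex.

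The spindle checkpoint holds back anaphase until every kinetochore is attached, and all 5 of its genes had positive differences. Bub1b, which encodes the inhibitor BubR1, had 2.88 and 3.42 in USP8ff_CD4Cre, against 2.58 and 2.55 in USP8ff (difference 0.59 ± 0.20). The kinase gene Bub1 had 1.82 and 2.24 in USP8ff_CD4Cre, against 1.55 and 1.44 in USP8ff (difference 0.53 ± 0.17), and the kinase gene Ttk had -1.80 and -1.24 in USP8ff_CD4Cre, against -1.85 and -2.02 in USP8ff (difference 0.41 ± 0.21). In these 3 genes the groups did not overlap. Mad2l1, whose product binds the activator CDC20, had 1.87 and 2.25 in USP8ff_CD4Cre, against 1.93 and 1.64 in USP8ff, with USP8ff replicate 1 above USP8ff_CD4Cre replicate 1 (difference 0.27 ± 0.18). Bub3, a binding partner of both BUB proteins, had 4.86 and 5.16 in USP8ff_CD4Cre, against 4.70 and 4.80 in USP8ff, with little distance between groups (difference 0.26 ± 0.14).

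At the kinetochore all 6 genes had positive differences, with a median of 0.46, and 2 were past an unadjusted p of 0.05. Nuf2, of the NDC80 complex that grips microtubules, had 2.43 and 3.08 in USP8ff_CD4Cre, against 2.32 and 2.19 in USP8ff, the largest difference of the class (0.50 ± 0.23). Cenpa, whose promoter is printed further up, had 2.63 and 2.95 in USP8ff_CD4Cre, against 2.37 and 2.22 in USP8ff (difference 0.49 ± 0.15). Spc25, of the same complex as Nuf2, had 2.35 and 3.02 in USP8ff_CD4Cre, against 2.50 and 2.36 in USP8ff. Only USP8ff_CD4Cre replicate 2 stood out, while replicate 1 was the lowest of the 4 arrays, which left a difference of 0.26 ± 0.24. Without USP8ff_CD4Cre replicate 2 the Spc25 difference was -0.08. The motor gene Cenpe (0.43 ± 0.17), Cenpf (0.49 ± 0.19) and Ndc80 (0.40 ± 0.24) lay between.

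Genes of anaphase onset held the exception. Cdc20, the activator of the anaphase-promoting complex, had 5.48 and 5.94 in USP8ff_CD4Cre, against 5.35 and 5.16 in USP8ff (difference 0.45 ± 0.19). Ube2c, the ubiquitin-conjugating enzyme of that complex, had 3.30 and 3.73 in USP8ff_CD4Cre, against 3.08 and 2.85 in USP8ff (difference 0.55 ± 0.18). Espl1, which encodes separase, the protease that cuts cohesin, had 1.38 and 1.83 in USP8ff_CD4Cre, against 1.22 and 0.91 in USP8ff (difference 0.54 ± 0.20). In all 3 the groups did not overlap.

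Pttg1 encodes securin, which inhibits separase until anaphase. Its signals were 3.43 and 3.22 in USP8ff_CD4Cre, against 3.42 and 3.52 in USP8ff, with USP8ff replicate 2 the highest array and USP8ff_CD4Cre replicate 2 the lowest, the reverse of the common pattern. The difference was -0.15 ± 0.13, with a 95% interval of -0.47 to 0.17, so that the data do not settle its direction. The interval lies below the median difference of 0.49, but Pttg1 was the lowest gene of the list and was not tested against the others. The gene was measured by 1 probe (mm9 chromosome 11, 43233801 to 43233860).

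Of the kinesin motors, all 5 had positive differences and groups that did not overlap, with a median of 0.56, and all 5 followed the common order of the arrays. Kif15, a motor of bipolar spindles, had 0.61 and 0.75 in USP8ff_CD4Cre, against 0.39 and -0.27 in USP8ff (difference 0.62 ± 0.23), and its lowest value by far was USP8ff replicate 2. Kif4, a motor of chromosome arms and of the central spindle, had 3.002 and 3.41 in USP8ff_CD4Cre, against 2.72 and 2.45 in USP8ff (difference 0.62 ± 0.18). Kif11, which slides antiparallel microtubules apart, had 0.60 and 0.94 in USP8ff_CD4Cre, against 0.38 and 0.03 in USP8ff (difference 0.56 ± 0.18). These 3 genes had the largest differences among the motors. Kif2c, a microtubule depolymerase of the kinetochore, had 0.37 and 0.94 in USP8ff_CD4Cre, against 0.19 and 0.05 in USP8ff (difference 0.54 ± 0.21). Kif18a, which dampens chromosome movement, had 0.13 and 0.74 in USP8ff_CD4Cre, against -0.03 and -0.10 in USP8ff (difference 0.50 ± 0.22).

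The 4 spindle-binding genes also had groups that did not overlap, with a median of 0.46. Tpx2, the activator of Aurora A on the spindle, had 2.70 and 3.19 in USP8ff_CD4Cre, against 2.45 and 2.39 in USP8ff (difference 0.53 ± 0.19). Nusap1, a microtubule-bundling protein gene, had 3.40 and 3.73 in USP8ff_CD4Cre, against 3.13 and 2.97 in USP8ff (difference 0.52 ± 0.15). In all 4 genes of this class the gap between the pools of USP8ff_CD4Cre was wider than that between those of USP8ff. Hmmr, the gene of a spindle assembly protein, had 1.88 and 2.40 in USP8ff_CD4Cre, against 1.68 and 1.78 in USP8ff (difference 0.41 ± 0.19). Ckap2, a spindle protein gene, had 0.73 and 1.16 in USP8ff_CD4Cre, against 0.70 and 0.39 in USP8ff, where USP8ff_CD4Cre replicate 1 and USP8ff replicate 1 nearly met (difference 0.40 ± 0.20).

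Genes of chromosome structure had positive differences and groups that did not overlap in all 7, and for 6 of the 7 the difference exceeded both gaps between replicates. Both counts include Smc4, although its difference was only 0.07. Top2a, the topoisomerase that untangles sister chromatids, had 2.97 and 3.33 in USP8ff_CD4Cre, against 2.71 and 2.53 in USP8ff (difference 0.53 ± 0.16). Mki67, a coat protein gene of mitotic chromosomes and the usual marker of proliferation, had 6.17 and 6.51 in USP8ff_CD4Cre, against 5.81 and 5.82 in USP8ff (difference 0.52 ± 0.15; mm9 chromosome 7, 142881591 to 142881650). The 2 USP8ff pools were almost equal here. The condensin I genes Ncaph (0.43 ± 0.19), Ncapg (0.43 ± 0.18) and Ncapd2 (0.37 ± 0.14) had somewhat smaller differences.

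The 2 core condensin ATPase genes had intervals that overlap, and they were not tested against each other. Smc2 had 1.67 and 1.48 in USP8ff_CD4Cre, against 1.35 and 0.97 in USP8ff, with USP8ff_CD4Cre replicate 1 rather than replicate 2 the highest (difference 0.41 ± 0.17, 95% interval -0.01 to 0.84). Smc4 had 6.91 and 6.91 in USP8ff_CD4Cre, against 6.81 and 6.86 in USP8ff, which is nearly level over the 4 arrays (difference 0.07 ± 0.10, 95% interval -0.19 to 0.34). The Smc4 interval lies below the median of the mitotic genes, but that median has its own error and Smc4 was not tested against the other genes. With quantile normalization the Smc4 difference was -0.02.

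Cytokinesis genes, which build the central spindle and the contractile ring, had a median of 0.48, and 4 of the 6 were past an unadjusted p of 0.05. Prc1, which crosslinks the central spindle, had 4.56 and 4.89 in USP8ff_CD4Cre, against 4.39 and 3.94 in USP8ff, the largest difference of the class (0.56 ± 0.20). Racgap1, of the centralspindlin complex, had 1.77 and 2.12 in USP8ff_CD4Cre, against 1.53 and 1.31 in USP8ff (difference 0.53 ± 0.16). Kif23, the motor partner of Racgap1, had 2.58 and 2.91 in USP8ff_CD4Cre, against 2.51 and 2.33 in USP8ff, the smallest (0.33 ± 0.16). Its groups did not overlap, although USP8ff_CD4Cre replicate 1 and USP8ff replicate 1 lay close. The RhoA exchange factor gene Ect2 (0.49 ± 0.18) and the motor gene Kif20a (0.48 ± 0.18) lay between, and the anillin gene Anln (0.37 ± 0.24) had groups that overlapped.

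Other probes of the same genes gave much the same picture. Of the 97 probes, 84 passed the filter on dim probes and 13 did not. For 26 genes several probes were kept, which gave 32 further probes beside the brightest one that stood for each gene. Of these 32, 31 had positive differences, with a median of 0.39. In 22 of the 26 genes all kept probes lay within 0.2 of each other on the log2 scale. The 4 others were Bub1, Cenpf, Kif11 and Ncapd2.

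The further probes differed from the brightest ones in a few genes. A second Bub1 probe had a difference of 0.07 ± 0.17, and its values of -1.62 and -1.40 in USP8ff_CD4Cre, against -1.39 and -1.76 in USP8ff overlapped. The second Smc4 probe had -0.04 ± 0.12, so that both Smc4 probes lay near 0. Both other Smc2 probes had positive differences, 0.40 ± 0.11 and 0.43 ± 0.15. The second Cenpf probe had the largest difference of any kept probe of the list, 0.73 ± 0.18.

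**Figure D4:**
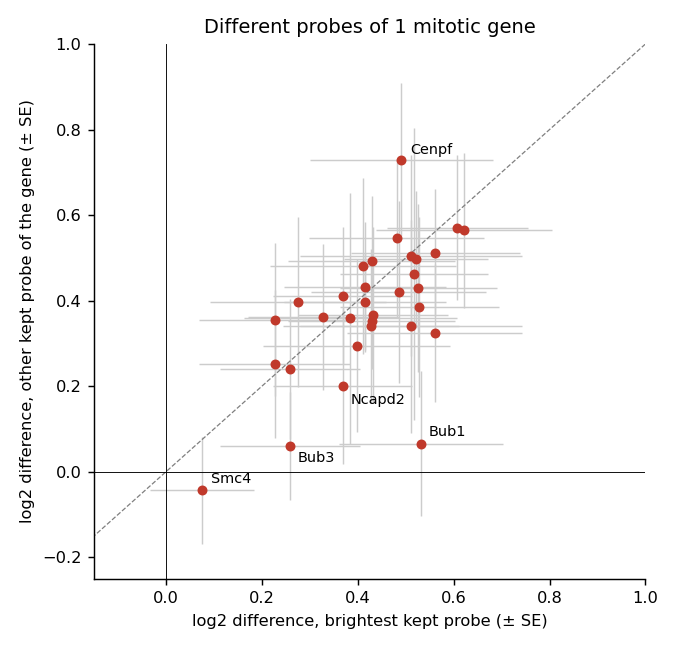
Log2 difference, USP8ff_CD4Cre minus USP8ff, of the 32 further kept probes (vertical axis) against the brightest kept probe of the same gene (horizontal axis), both from a limma fit over kept probes, with bars of 1 SE; the dashed line marks equal values. Of the 32 points, 22 lie below the line and 10 above it, with the second probes of Bub1, Bub3 and Smc4 near 0 on the vertical axis.

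Bright and dim members had much the same difference. The 17 genes with the highest mean signal in USP8ff had a median difference of 0.48 and the 17 with the lowest had 0.50. All 52 genes were well above background on all 4 arrays, so none of these values is a bound.

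Other mitotic genes outside the list had a like pattern. Of 73 such genes 72 were measured, and 69 had positive differences, against 54.8% of all genes tested, with a median of 0.44. At an unadjusted p under 0.05, 34 of the 72 were higher in USP8ff_CD4Cre and 0 lower, against 3.97% and 3.46% of all genes tested. In limma 0 passed adjustment, as did 0% of all genes tested. The groups did not overlap, with USP8ff_CD4Cre higher, for 61 of the 72, and with it lower for 3, against 24.3% and 16.3% of all genes tested. Cit, the citron kinase gene of late cytokinesis, had 0.96 and 1.01 in USP8ff_CD4Cre, against 0.54 and 0.29 in USP8ff (difference 0.57 ± 0.13). Spc24, the partner of Spc25 in the NDC80 complex, had 2.52 and 2.84 in USP8ff_CD4Cre, against 2.17 and 1.99 in USP8ff (difference 0.60 ± 0.15). Unlike Spc25, Spc24 was higher on both USP8ff_CD4Cre arrays. A CHR was found in 53.8% of their promoter windows and both elements in 35.4%. The 3 genes with negative differences, which are also the 3 that lay lower on both USP8ff_CD4Cre arrays, were Cenpt (-0.09), Mad1l1 (-0.17) and Zwint (-0.01), named after their values were seen.

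DNA replication genes, which act in S phase, had positive differences in all 31 measured, against 54.8% of all genes tested, with a median of 0.42. Of these 31, 12 were higher at an unadjusted p under 0.05 and 0 were lower, against 3.97% and 3.46% of all genes tested. In limma 0 passed adjustment, as did 0% of all genes tested. Tyms, which makes thymidylate, had 4.92 and 5.18 in USP8ff_CD4Cre, against 4.62 and 4.45 in USP8ff (difference 0.52 ± 0.14). Uhrf1, which maintains DNA methylation at replication, had 5.30 and 5.37 in USP8ff_CD4Cre, against 4.96 and 4.63 in USP8ff (difference 0.54 ± 0.15). Over the 31 genes the arrays followed the mitotic order in 29, against 10.1% of all genes tested. A CHR was found in 13.3% of their promoter windows and a CCAAT box in 15 of 30, against 13.8% and 38.1% of the windows of genes tested. The median difference of the mitotic genes was thus not far from that of the replication genes, and a difference between the lists was not tested.

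**Figure D5:**
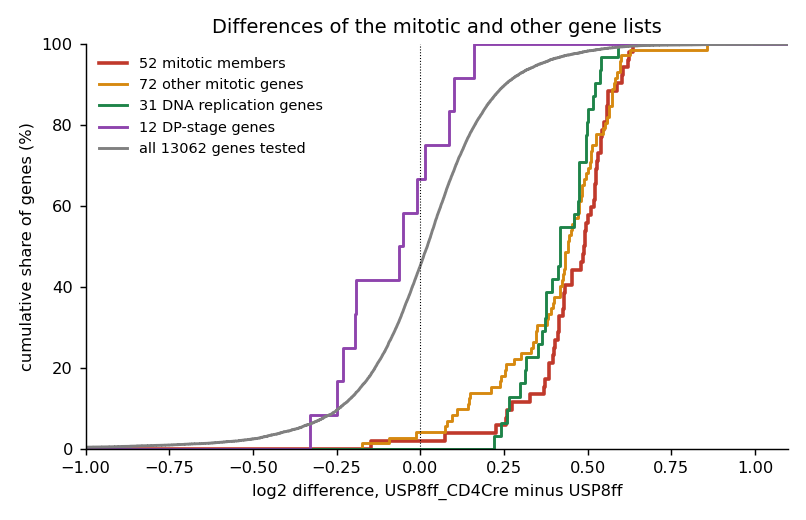
Cumulative share of genes (vertical axis, %) by log2 difference, USP8ff_CD4Cre minus USP8ff (horizontal axis), for the 52 mitotic genes, 72 other mitotic genes, 31 DNA replication genes, 12 DP-stage genes and all 13062 genes tested. The mitotic and replication curves lie right of the curve of all genes, with medians of 0.49, 0.44 and 0.42 against 0.02, and the DP-stage curve has a median of -0.06.

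Markers of the DP stage stayed close to level. Of the 12, 4 had positive differences, against 54.8% of all genes tested, with a median of -0.06, and 0 passed adjustment in limma. Both USP8ff_CD4Cre arrays lay above both USP8ff arrays for 3 and below both for 4, against 24.3% and 16.3% of all genes tested. Rag2, a recombinase subunit gene, had the smallest p with -0.33 ± 0.13. Cd1d1, of the lipid-presenting CD1 family, followed with -0.25 ± 0.12. Their summed linear signal, in multiples of the 75th percentile, was 1992 and 2016 in USP8ff_CD4Cre and 1882 and 2016 in USP8ff. Such sums, here and below, are carried by the brightest probes and say little of dim genes. Most of the DP sum was Cd8b1 and Dntt, and Dntt had 9.52 and 9.54 in USP8ff_CD4Cre, against 9.42 and 9.43 in USP8ff. For the mitotic genes the summed linear signal was 995 and 1259 in USP8ff_CD4Cre and 870 and 808 in USP8ff.

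Markers of other cells that divide or could enter the sort were given by the same measures, and single markers differed in direction within several lists. Of 11 markers of double-negative and immature single-positive thymocytes 5 were measured, with a median of -0.16 and 1 positive difference, and Erg, Hes1, Hhex and Spi1 were not well above background on any array. Their sum was 6.83 and 8.61 in USP8ff_CD4Cre and 7.95 and 8.45 in USP8ff. Most of it was Notch3, Ptcra and Dtx1, with differences of 0.18, -0.16 and -0.01. The dimmer Il7r (-2.99 ± 0.22) and Cd44 (-0.76 ± 0.31) lay lower on both USP8ff_CD4Cre arrays. For Il7r the USP8ff_CD4Cre signals, -4.81 and -5.07, were not well above background. Of 11 erythroid markers 4 were measured, with a median of 0.05, a sum of 1.95 and 2.13 in USP8ff_CD4Cre and of 2.29 and 1.74 in USP8ff, and no signal well above background for Alas2 or Klf1. The erythroid markers ran in both directions. The alpha-globin gene Hba-a2, which has a near-identical copy, had -3.21 and -1.58 in USP8ff_CD4Cre, against -3.24 and -3.18 in USP8ff, and the transferrin receptor gene Tfrc had -0.21 and 0.40 in USP8ff_CD4Cre, against -0.06 and -0.55 in USP8ff. Both were thus highest on USP8ff_CD4Cre replicate 2, the array on which most mitotic genes were highest, while the carbonic anhydrase genes Car1 and Car2 had negative differences. The erythroid median was 0.11 with normexp background and -0.05 without USP8ff_CD4Cre replicate 2. The double-negative median was 0.05 without USP8ff_CD4Cre replicate 1.

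Macrophage and dendritic cell markers (6 of 10 measured) had a median of -0.32 and sums of 1.51 and 1.82 in USP8ff_CD4Cre and 2.53 and 2.77 in USP8ff, with Adgre1 and C1qa not well above background on any array. Ctss (-1.96 ± 0.21) and Mpeg1 (-1.09 ± 0.23) had the smallest p of this list. The difference was positive for 1 of the 6, the dim C1qb (0.25 ± 0.14), against 54.8% of all genes tested. B cell markers (2 of 6 measured) had sums of 6.08 and 5.17 in USP8ff_CD4Cre and 6.62 and 6.16 in USP8ff, with Cd79a, Ms4a1 and Pax5 not well above background. For mature single-positive cells (6 of 8 measured) the median was -0.11, with sums of 113 and 124 in USP8ff_CD4Cre and 103 and 112 in USP8ff. Most of these sums was Klf2, a transcription factor gene of mature cells, with 92.1 and 103 in USP8ff_CD4Cre and 80.2 and 86.4 in USP8ff. The difference was positive for 2 of the 6, against 54.8% of all genes tested, and negative for 4. Among these 4 were the chemokine receptor gene Ccr7 and the integrin gene Itgb7, both lower on both USP8ff_CD4Cre arrays. NK and gamma-delta T cell markers (4 of 10 measured) had a median of -1.44, with sums of 3.37 and 4.74 in USP8ff_CD4Cre and 3.77 and 3.87 in USP8ff. Most of these sums was the granzyme gene Gzma, with 1.59 and 2.12 in USP8ff_CD4Cre, against 1.53 and 1.35 in USP8ff. Gzma followed the array order of most mitotic genes (difference 0.42 ± 0.20). The dimmer Nkg7 (-2.09 ± 0.18), Il2rb (-2.02 ± 0.34) and Prf1 (-0.86 ± 0.21) lay lower on both USP8ff_CD4Cre arrays. When only probes well above background on all 4 arrays were kept, the NK list fell to 3 genes with a median of -0.86. Nkg7 or Il2rb was thus not well above background on every array, and the size of such a difference is uncertain. The NK median was -0.74 with normexp background and -0.71 over 8 genes with no filter on dim probes. Thymic stroma (3 of 8 measured) and granulocyte markers (1 of 7 measured) had medians of -0.10 and -0.14. None of these lists had a member past adjustment in limma, and the part of other cells in the mitotic differences was not tested.

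In the authors' deposited table of 78 probes, 0 belonged to the mitotic list, 0 to the other mitotic genes and 0 to the replication genes. The smallest absolute fold in the authors' deposited table was 2.002, while the largest fold of a mitotic gene here was 1.55 over the brightest probes and 1.66 over all kept probes.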

How the data were processed

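Per the labels, Cy3-labelled cRNA was hybridised to single-colour arrays. Per the file headers, Feature Extraction 10.7.3.1 gave the deposited spot intensities, background-subtracted and detrended within each array, with probe positions on mm9. The authors' deposited table of folds and p-values names no test. A further deposited table had 4 per-sample columns that match no label and was not used.

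From each log2 processed signal the array's 75th percentile, taken over 43379 non-control spots, was subtracted. Outlier spots were left out (17 of 41174 probes lost) and spots of a probe averaged. A probe was kept if some genotype had it well above background on both its arrays (19038), and the brightest kept probe stood for its gene (13062 genes). RefSeq named 26690 probes by accession. The comparison of genotypes used limma 3.58.1 (R 4.3.3) over all genes, without a block. Same-numbered arrays had a correlation of deviations of 0.321 across genes, but 2 pairs do not establish pairing.

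The members and lists were chosen with earlier results of these data known. Genes named in full were the largest, the smallest and the lowest-p member of each class, or all in classes of up to 5, and the 2 with the smallest p from the other mitotic, replication and DP lists; other marker lists are given by counts and sums. Smc2, second probes and single markers of other cells were named after their values were seen, and Cd8b1, Rag1 and Usp8 as label checks. Figures used matplotlib 3.10.9.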

Additional observations from a re-analysis of the deposited data

How the results depend on the processing

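The count of genes past adjusted p 0.05 was 0 under all 13 alternatives in limma, and of 676 member values under them 2 changed sign: Smc4 with quantile normalization (-0.0182) and Spc25 without USP8ff_CD4Cre replicate 2 (-0.0791, against 0.592 without USP8ff_CD4Cre replicate 1). The number of mitotic genes past an unadjusted p of 0.05 was 27, against 17 with median scaling and 5 with no filter on dim probes (Mki67, Plk1, Birc5, Kif4 and Cks2), with 31 under the replicate block and 1 to 43 with an array left out. Their median of 0.49 was 0.43 to 0.49 under the alternatives that kept all arrays and 0.25 to 0.70 with an array left out. For other mitotic genes the count of 34 was 21 with median scaling, 9 with no filter and 3 to 50 with an array left out. For replication genes the count of 12 was 7 with median scaling, 2 with no filter, 21 with normexp background, 22 with an eBayes trend and 0 to 19 with an array left out. With no filter 28472 genes were tested and the median of all genes was -0.13. The causes were not tested. With an array left out, the lone array of its genotype is assumed to vary like the other group. The replicate block moved no other count of the mitotic genes. All 52 genes were well above background on all 4 arrays.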
